A study of Homo sapiens with 6 samples.

Results

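The genes described here are the death receptors of the TNF receptor family, the decoy receptors that intercept their ligands, and the ligand TRAIL (TNFSF10). They were taken by symbol from a table of 31164 genes, and all 10 members were found: the death-domain receptors TNFRSF1A, FAS, TNFRSF10A, TNFRSF10B and TNFRSF21, the related receptor TNFRSF12A, the decoys TNFRSF6B, TNFRSF10D and TNFRSF11B, and TNFSF10. Per the labels, the RNA came from HT29, a line derived from a human colorectal adenocarcinoma, as 6 poly-A libraries from untreated cells. In 3 of them (shNC) the cells carried a control hairpin and are labelled wild type; in the other 3 (shHMGA1) a stably expressed hairpin lowered HMGA1, an architectural DNA-binding protein whose AT-hooks favour AT-rich stretches. How many hairpins or clones each group held and whether replicates were separate cultures is not stated, so the tests below measure the spread between these libraries. The members were chosen by name with their FPKM differences between shHMGA1 and shNC already known. Their differences are therefore described without a test.

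Death receptors carry a death domain inside the cell. When a trimeric ligand such as FAS ligand, TNF or TRAIL binds outside, the receptors recruit the adaptor FADD or TRADD, and FADD brings caspase-8 to be activated. Decoy receptors bind some of the same ligands and pass on no death signal. TNFRSF6B and TNFRSF11B are secreted, and TNFRSF10D sits in the membrane with a truncated death domain. Colorectal cancers are known to make TNFRSF6B, which binds FAS ligand, TNFSF14 and TNFSF15.

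Values are FPKM, fragments scaled to transcript length and to library size, as the authors deposited them. Totals ran from 807156 to 838067 FPKM per library. Judged from the steps between low values, relative depth was 0.72 to 1 (shNC replicate 1 set to 1), and between 5747 and 7116 genes were at 0. HMGA1 stood at 785, 810 and 854 FPKM in shNC and at 465, 565 and 508 in shHMGA1, a log2 difference of -0.67 (SE 0.08, adjusted p = 0.0018 by limma), with p = 0.1 by two-sided exact permutation, the smallest that 3 against 3 allows. The epithelial markers EPCAM, KRT8, KRT18 and KRT19 were between 194 and 1565 FPKM in every library. EPCAM was called higher in shHMGA1 (log2 difference 0.35, adjusted p = 0.0072 by limma), KRT18 (-0.25, adjusted p = 0.0214) and KRT19 (-0.28, adjusted p = 0.00792) were called lower, and KRT8 was not called. Of the other colon markers, CDH1 was at 33.6 to 38.6 FPKM, CDX2 at 7.12 to 8.97 and KRT20 at 0.84 to 1.14. CDX1, VIL1, CEACAM5, LGALS4 and CDH17 were at or near 0, with no library above 0.22 FPKM. Whether the cells are the labelled line was not tested. The summed level of 11 immune markers was 2.49 to 2.83 FPKM in shNC and 2.61 to 3.17 in shHMGA1, with the leukocyte gene PTPRC at 0.01 or below. The sum of 9 stromal and endothelial markers was 22.7 to 24.3 and 18.4 to 20.3 FPKM, nearly all of it from COL1A1 and ACTA2; COL3A1 was at 0.177 ± 0.00577 FPKM in shNC and 0.89 ± 0.0721 in shHMGA1. The 13 mitochondrially encoded genes all had negative differences (median -0.26) that did not pass the limma test. The part of these differences in the results below was not tested.

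Sequences before the start site are shown for 3 of the members that stood lowest in shHMGA1 relative to shNC: TNFRSF6B, TNFSF10 and TNFRSF21. They come from RefSeq (GRCh38.p14), which gave entries for 5 of the 10 members. Up to 250 bases before the RefSeq start are printed, stopping at the first base that GENCODE 29 annotates as UTR. Capitals mark matches, on either strand, to 6 motifs: the TATA box TATAAA, the GC box GGGCGG, AP-1 as TGANTCA, STAT as TTCNNNGAA, NF-kB as GGG and TTTCC spaced by any 2 bases, and the interferon response element as GAAA and GAAA spaced by any 2 bases. The TNFRSF6B stretch is chr20:63696402-63696650 on the plus strand, the TNFSF10 stretch chr3:172523508-172523680 on the minus strand and the TNFRSF21 stretch chr6:47309906-47310155 on the minus strand.
TNFRSF6B: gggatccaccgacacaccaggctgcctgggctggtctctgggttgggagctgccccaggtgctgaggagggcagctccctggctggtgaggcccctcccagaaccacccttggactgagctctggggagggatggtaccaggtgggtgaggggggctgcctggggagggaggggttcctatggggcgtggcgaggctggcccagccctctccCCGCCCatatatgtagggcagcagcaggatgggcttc
TNFSF10: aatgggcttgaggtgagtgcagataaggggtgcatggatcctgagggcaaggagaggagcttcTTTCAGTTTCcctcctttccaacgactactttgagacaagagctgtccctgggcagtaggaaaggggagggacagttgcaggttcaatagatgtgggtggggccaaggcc
TNFRSF21: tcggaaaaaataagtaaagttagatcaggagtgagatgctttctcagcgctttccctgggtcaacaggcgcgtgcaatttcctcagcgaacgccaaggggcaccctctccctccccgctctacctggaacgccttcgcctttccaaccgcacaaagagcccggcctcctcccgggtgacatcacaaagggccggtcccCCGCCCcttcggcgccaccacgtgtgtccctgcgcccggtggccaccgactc

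In the full window of 250 bases, TNFRSF6B and TNFRSF21 each held a single GC box, at positions -38 and -52 from the start site. GC boxes occur in 42.6% of 35116 RefSeq promoters of the same length. TNFSF10 held a match to the interferon response element (position -187, reverse strand as printed) and a TATA box at position -31, which lies past the printed stretch. These motifs occur in 3.02% and 10.7% of the promoters. FAS, from the first of its 3 RefSeq entries, had 1 GC box and 1 AP-1 match, and TNFRSF1A had no match to any of the 6. AP-1 matches occur in 6.57% of promoters, STAT matches in 6.57% and NF-kB matches in 1.73%. The TNFRSF6B window was 32% A or T, against a median of 42% over all promoters, and 75.5% of promoters were at least as AT-rich. The corresponding figures were 38% for TNFRSF21, 37.2% for FAS, 43.2% for TNFRSF1A and 50.4% for TNFSF10. All 250 bases of the TNFRSF6B window are annotated exon bases of the readthrough gene RTEL1-TNFRSF6B, so the stretch printed is also part of that gene's transcripts. A match says only that these letters are there.

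TNFRSF6B stood furthest from its control level among the abundant members: its RNA in shHMGA1 was at 26.4% of that in shNC, TNFRSF10D, TNFRSF1A, TNFRSF12A and TNFRSF21 were at 69.8% to 78.7% of theirs, and FAS and TNFRSF10A were not lower. In 7 of 10 members, TNFSF10 among them, every shHMGA1 library lay below every shNC library, and in the other 3 the groups overlapped. The limma fit across all genes could include 8 members, those averaging 1 FPKM or more. Of these, 5 had an adjusted p under 0.05 and lay lower in shHMGA1, and 0 lay higher. In 6 of these 8 the groups did not overlap. Over all 14304 genes tested, 12.3% were called lower and 16.1% higher, and groups that did not overlap with shHMGA1 lower were found in 20.5% of genes, higher in 25.4% and in either direction in 45.9%; 28.4% were called in either direction. The split of calls over all genes depended on scaling, with 1930 higher and 2030 lower under median-of-ratios scaling and 1962 and 1901 without mitochondrially encoded genes. As these members were picked with the contrast known, the counts are descriptive and nothing is read from them.

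**Figure D1:**
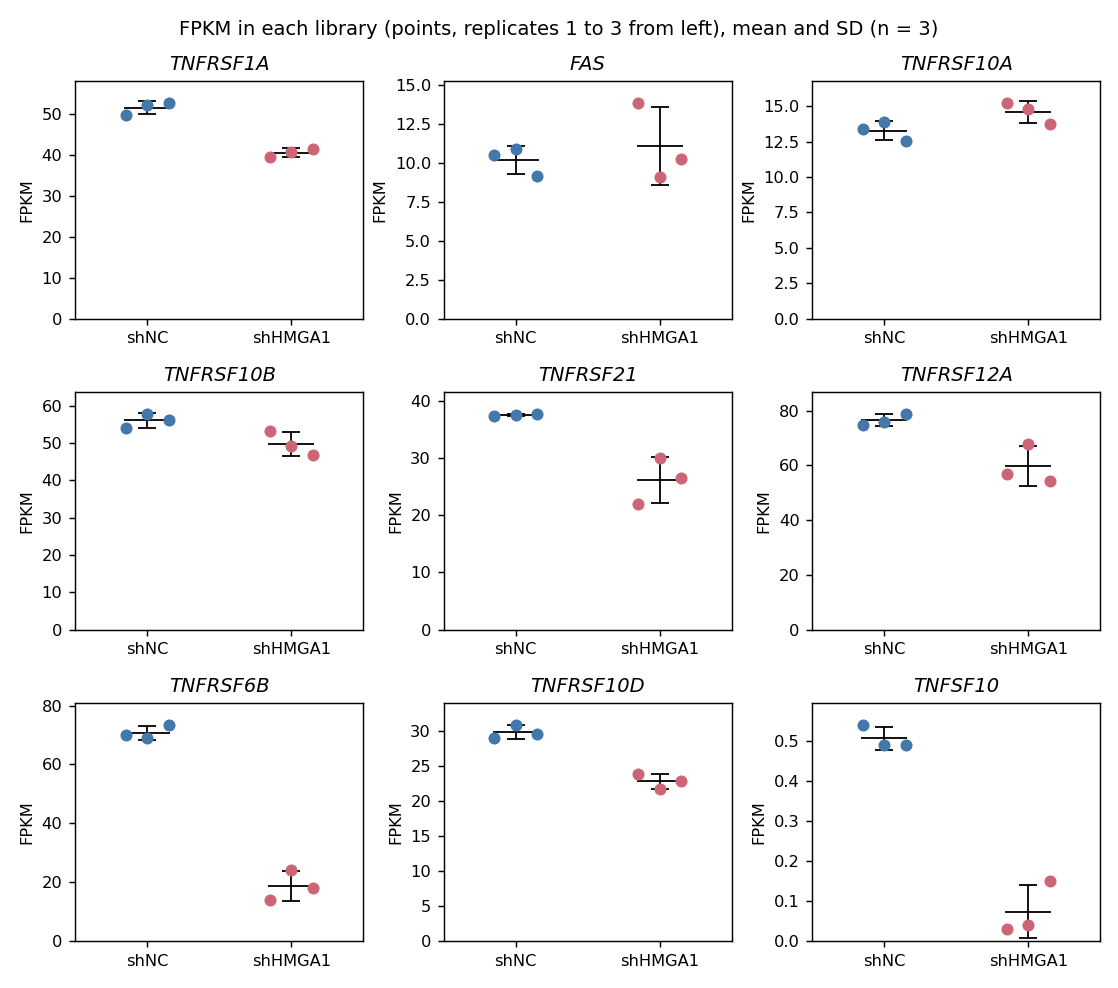
FPKM of 9 members in each library. Each panel is 1 gene with its own axis from 0, the points are the 3 shNC (blue) and 3 shHMGA1 (red) libraries, and the line and bars give the mean and SD. TNFRSF6B shows the widest gap among the abundant genes, and the groups overlap for FAS and TNFRSF10A.

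TNFRSF6B, the secreted decoy for FAS ligand, was at 69.98, 68.98 and 73.4 FPKM in shNC replicates 1 to 3 and at 13.9, 24.0 and 18.0 in shHMGA1 replicates 1 to 3. The 3 knockdown libraries differed among themselves by up to 10 FPKM, yet the highest of them was far below the lowest control. The means were 70.8 ± 2.33 and 18.7 ± 5.07 FPKM (SD, n = 3 each), a difference of -1.90 in log2(FPKM + 1) (SE 0.17). With any 1 library left out it stayed between -2.09 and -1.72. In the authors' deposited table its log2 fold change was -1.95. TNFRSF6B (ENSG00000243509.6) lies on chromosome 20 from 63696651 to 63698684, plus strand, in hg38 (GENCODE 29, which holds another version of this ID).

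TNFRSF10D, the membrane decoy for TRAIL, was at 28.99, 30.9 and 29.6 FPKM in shNC and 23.9, 21.8 and 22.8 in shHMGA1. The spread within each group was narrow beside the gap between them. The means were 29.8 ± 0.965 and 22.8 ± 1.08 FPKM, a log2 difference of -0.37 (SE 0.06). TNFRSF11B (osteoprotegerin), which binds TRAIL and RANK ligand, was listed at 0 in 5 libraries and at 0.02 FPKM in shNC replicate 3. This decoy was therefore essentially not measured in either group.

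TNFRSF1A, the main receptor for TNF, was at 49.6, 52.0 and 52.7 FPKM in shNC and 39.4, 40.6 and 41.5 in shHMGA1. The libraries of each group lay within about 3 FPKM of each other. The means were 51.5 ± 1.62 and 40.5 ± 1.05 FPKM, 78.7% of the control level, with a log2 difference of -0.34 (SE 0.05). TNFRSF21 (death receptor 6, known for its role in neurons and lymphocytes) was at 37.2, 37.4 and 37.7 FPKM in shNC and at 21.9, 30.0 and 26.5 in shHMGA1. The controls were almost equal and the knockdown libraries spread over 8 FPKM, with replicate 1 lowest. The means were 37.5 ± 0.222 and 26.1 ± 4.09 FPKM, with a log2 difference of -0.51 (SE 0.10). Both genes have the same ID version in the table and in GENCODE 29. TNFRSF1A is on chromosome 12 from 6328757 to 6342114 and TNFRSF21 on chromosome 6 from 47231532 to 47309905, both on the minus strand.

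The death receptors for TRAIL and FAS ligand differed less between the groups. TNFRSF10B, the more abundant TRAIL death receptor, was at 54.0, 57.8 and 56.3 FPKM in shNC and 53.2, 49.1 and 46.8 in shHMGA1. The groups did not overlap, but shHMGA1 replicate 1 lay within 1 FPKM of the lowest control. The means were 56.0 ± 1.92 and 49.7 ± 3.28 FPKM, with a log2 difference of -0.17 (SE 0.06) that ran from -0.22 to -0.13 with 1 library left out. TNFRSF10A, the other TRAIL death receptor, was at 13.4, 13.8 and 12.5 FPKM in shNC and 15.2, 14.8 and 13.8 in shHMGA1. Here 2 knockdown libraries were above all controls and 1 fell among them. The log2 difference was 0.13 (SE 0.07). FAS, the receptor for FAS ligand, was at 10.5, 10.9 and 9.16 FPKM in shNC and 13.9, 9.11 and 10.2 in shHMGA1. shHMGA1 replicate 1 stood apart from the other knockdown libraries, and replicate 2 held the lowest value of all 6. The log2 difference was 0.09 (SE 0.14), and without shHMGA1 replicate 1 it was -0.066. FAS lies on chromosome 10 from 88990582 to 89015785, plus strand.

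TNFRSF12A (FN14), the receptor for TNFSF12 (TWEAK), has no death domain. It was the most abundant member, at 74.7, 75.7 and 78.8 FPKM in shNC and at 56.8, 67.9 and 54.4 in shHMGA1. shHMGA1 replicate 2 lay between the other knockdown libraries and the controls. The means were 76.4 ± 2.16 and 59.7 ± 7.21 FPKM, with a log2 difference of -0.36 (SE 0.08). It lies on chromosome 16 from 3018445 to 3022383, plus strand. Its ligand TNFSF12 was tested as a gene outside the members and fell from 11.2 ± 0.622 to 8.31 ± 0.961 FPKM (log2 difference -0.39, SE 0.09, adjusted p = 0.0182 by limma). That call was lost when shNC replicate 1, shNC replicate 3 or shHMGA1 replicate 3 was omitted (adjusted p up to 0.068).

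TNFSF10 (TRAIL), the ligand of 4 membrane receptors and of TNFRSF11B, was at 0.54, 0.49 and 0.49 FPKM in shNC and at 0.03, 0.04 and 0.15 in shHMGA1. The 2 groups were well apart, at a level below the minimum for testing in both. The means were 0.507 ± 0.0289 and 0.0733 ± 0.0666 FPKM, 14.5% of the control level, while the difference in log2(FPKM + 1) was only -0.49, since the added 1 compresses low values. In the authors' deposited table its log2 fold change was -1.87, from group levels of 12.1 and 3.33 on a scale that is not stated. Across all 10 members, the sign of the difference was the same in the FPKM columns and in the authors' deposited table. Both come from the same 6 libraries, so the match is not independent support. For TNFRSF11B the sign rests on 0.02 FPKM in shNC replicate 3. TNFSF10 lies on chromosome 3 from 172505508 to 172523507, minus strand.

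**Figure D2:**
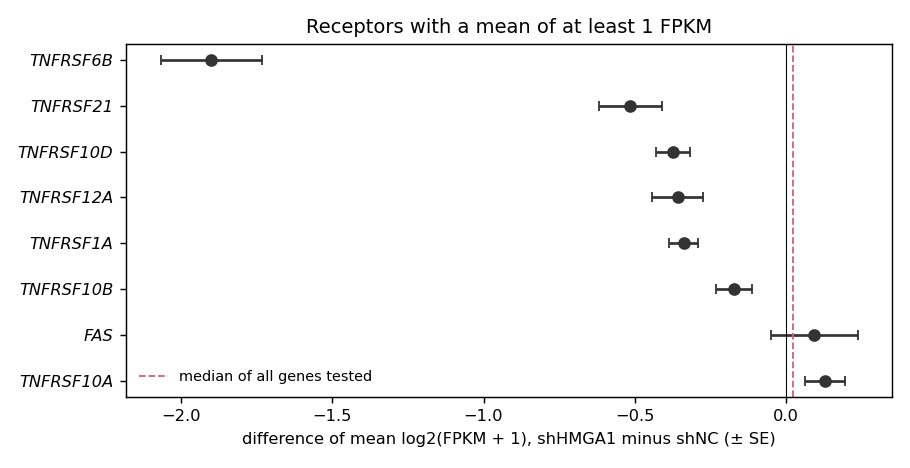
Difference of mean log2(FPKM + 1), shHMGA1 minus shNC, with its SE from the limma fit, for the 8 members averaging 1 FPKM or more. The dashed line is the median of all genes tested, at 0.02. TNFRSF6B lies at -1.90, the 5 next genes between -0.51 and -0.17, and FAS and TNFRSF10A above 0.

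In the controls the order of levels was clear. From the highest, it ran TNFRSF12A, TNFRSF6B, TNFRSF10B, TNFRSF1A, TNFRSF21, TNFRSF10D, TNFRSF10A, FAS, TNFSF10 and TNFRSF11B, and 0 of 9 neighbouring pairs had overlapping ranges. FPKM is per length, so these levels can be set side by side. In shHMGA1, TNFRSF6B moved from rank 2 to rank 6 and the others kept their order. There, 4 of 9 neighbouring pairs overlapped: TNFRSF21 with TNFRSF10D, TNFRSF10D with TNFRSF6B, TNFRSF6B with TNFRSF10A and TNFRSF10A with FAS. TNFRSF6B was thus no longer separable from its neighbours in the order.

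The summed decoy RNA was lower relative to death-domain receptor RNA in shHMGA1, mostly through TNFRSF6B. The 3 decoys among the members summed to 98.97, 99.9 and 103 FPKM in shNC and to 37.8, 45.8 and 40.9 in shHMGA1. The 5 death-domain receptors summed to 165, 172 and 168 FPKM in shNC and to 144, 144 and 139 in shHMGA1. In shNC, TNFRSF1A and TNFRSF21 made up 30.6% and 22.2% of this sum. Receptors were summed whether or not one of these decoys binds their ligand. Death-domain receptors outside the members, such as NGFR and TNFRSF25, were left out. NGFR, which fell, is described below. TNFRSF25 was at 9.73 ± 0.99 FPKM in shNC and 10.2 ± 1.15 in shHMGA1 and was not called (adjusted p = 0.71 by limma). The ratio of the sums was 0.598 ± 0.0161 in shNC and 0.292 ± 0.0276 in shHMGA1. Without TNFRSF6B it was 0.177 ± 0.00203 and 0.161 ± 0.00815, and with the decoy TNFRSF10C added it was 0.607 ± 0.0167 and 0.304 ± 0.0259. The groups did not overlap in any of the 3 forms, and the wide gap between them was seen only with TNFRSF6B included. TNFRSF6B alone was 6.65, 6.33 and 8.02 times as high as FAS in the controls and 1.01, 2.64 and 1.76 times as high in the knockdown. In shHMGA1 replicate 1 the decoy and the receptor it competes with were at nearly the same level, the result of both the lowest TNFRSF6B and the highest FAS value. RNA levels do not give the amount of secreted or surface protein.

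Among the 4 TRAIL receptors (TNFRSF10C, the lipid-anchored decoy, included) the shares changed less. TNFRSF10B held 55.7% ± 0.495 of their summed FPKM in shNC and 56.0% ± 0.807 in shHMGA1, with overlapping groups. The share of the decoy TNFRSF10D was 29.6% ± 0.036 in shNC and 25.7% ± 0.98 in shHMGA1, and that of TNFRSF10A 13.2% ± 0.618 and 16.5% ± 0.481. The groups did not overlap for either of these. TNFRSF10C was a minor part, at 1.52 ± 0.148 and 1.61 ± 0.25 FPKM, and was not called (log2 difference 0.05, adjusted p = 0.784 by limma).

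**Figure D3:**
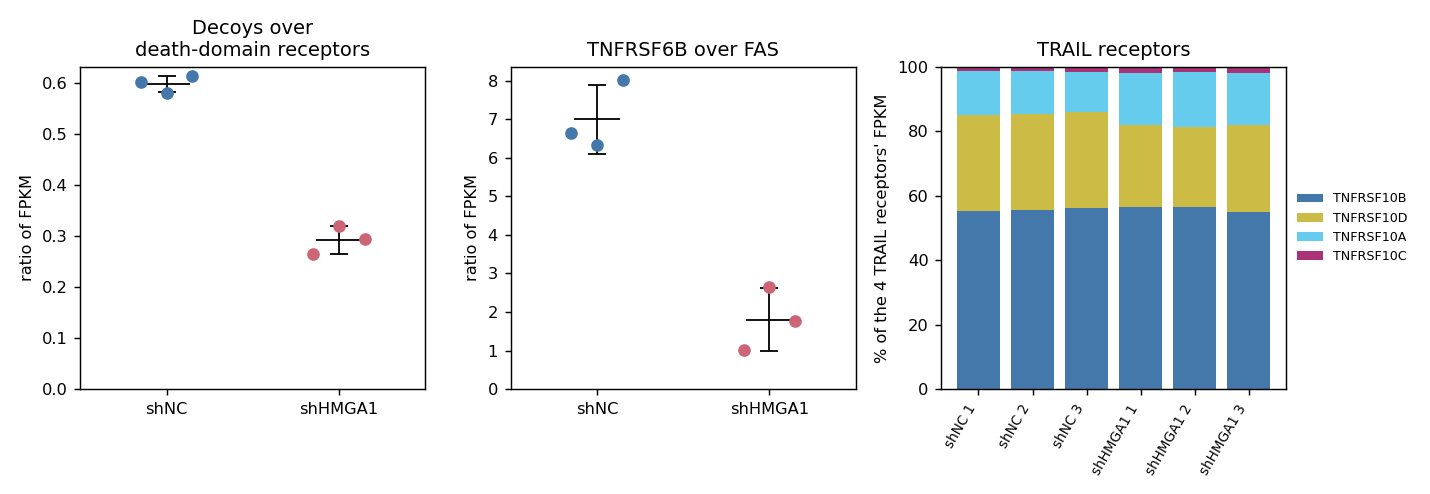
Left and middle: the FPKM of the 3 decoys over that of the 5 death-domain receptors, and of TNFRSF6B over FAS, per library (points) with mean and SD. Right: the share of each of the 4 TRAIL receptors in their summed FPKM, per library. The decoy ratio is near 0.6 in shNC and near 0.3 in shHMGA1, while TNFRSF10B keeps about 56% of the TRAIL receptor FPKM in both groups.

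Reads cannot be assigned to every member alone. All 1141 exon bases of TNFRSF6B are also exons of the readthrough gene RTEL1-TNFRSF6B, and 43 of them overlap the 3′ end of ARFRP1 on the opposite strand. Exons of FAS share 380 of 4253 bases with ACTA2 on the opposite strand, and TNFRSF12A shares 40 of 1848 with CLDN6, which did not exceed 0.19 FPKM. ACTA2, a smooth muscle actin, was at 11.7 ± 1.04 and 9.24 ± 1.36 FPKM and was not called (log2 difference -0.32, adjusted p = 0.067 by limma). TNFRSF10A shares 224 of 2951 exon bases with its antisense gene TNFRSF10A-AS1 and 266 with AC100861.1, and TNFRSF10B shares 67 of 5158 with RHOBTB2. TNFRSF10A-AS1 was at 8.01 ± 0.877 and 7.99 ± 0.638 FPKM. AC100861.1 fell from 9.03 ± 0.12 to 6.81 ± 1.11 FPKM (log2 difference -0.37, adjusted p = 0.0404 by limma), a call lost when any 1 of the shNC libraries or shHMGA1 replicate 3 was left out (adjusted p up to 0.113).

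The genes whose exons overlap TNFRSF6B, and RTEL1 just upstream, had positive differences. The readthrough gene RTEL1-TNFRSF6B, which contains the TNFRSF6B exons, was at 1.88, 1.74 and 1.79 FPKM in shNC and 2.95, 2.04 and 2.74 in shHMGA1. It was higher in every knockdown library and was not called (log2 difference 0.34, SE 0.12, adjusted p = 0.0766 by limma), although it passed without shHMGA1 replicate 2 (adjusted p = 0.0294). RTEL1, a helicase of telomere maintenance that ends just upstream, rose from 9.94 ± 0.372 to 13.5 ± 0.864 FPKM (log2 difference 0.41, SE 0.07, adjusted p = 0.00624 by limma). ARFRP1, a small GTPase, rose from 12.9 ± 0.688 to 16.8 ± 1.12 FPKM (0.36, SE 0.07, adjusted p = 0.0109). Both were called with any 1 library left out. TNFRSF6B FPKM was 39.3 ± 1.92 times that of the readthrough gene in shNC and 7.69 ± 3.65 times in shHMGA1.

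Within 100 kb of TNFRSF6B, 11 other protein-coding genes were tested, of which 5 rose, 1 fell and 5 did not pass. Over all genes tested, 16.1% were called higher and 12.3% lower. The 11 are not separate loci: RTEL1-TNFRSF6B overlaps RTEL1, and AL121845.3 overlaps ZGPAT and LIME1. Besides RTEL1 and ARFRP1, ZGPAT (log2 difference 0.28), GMEB2 (0.32) and SLC2A4RG (0.24) rose and STMN3 fell (-0.20); GMEB2, SLC2A4RG and STMN3 were named after their values were seen. The median of the 11 was 0.30, against 0.02 over all genes tested. Leaving out shNC replicate 1 or shHMGA1 replicate 3 left 2 called higher, and the count was 3 with shNC replicate 2, shNC replicate 3 or shHMGA1 replicate 2 omitted. STMN3 was not called when any 1 of the shNC libraries or shHMGA1 replicate 3 was left out. The window was chosen after the values of RTEL1 and ARFRP1 were seen.

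**Figure D4:**
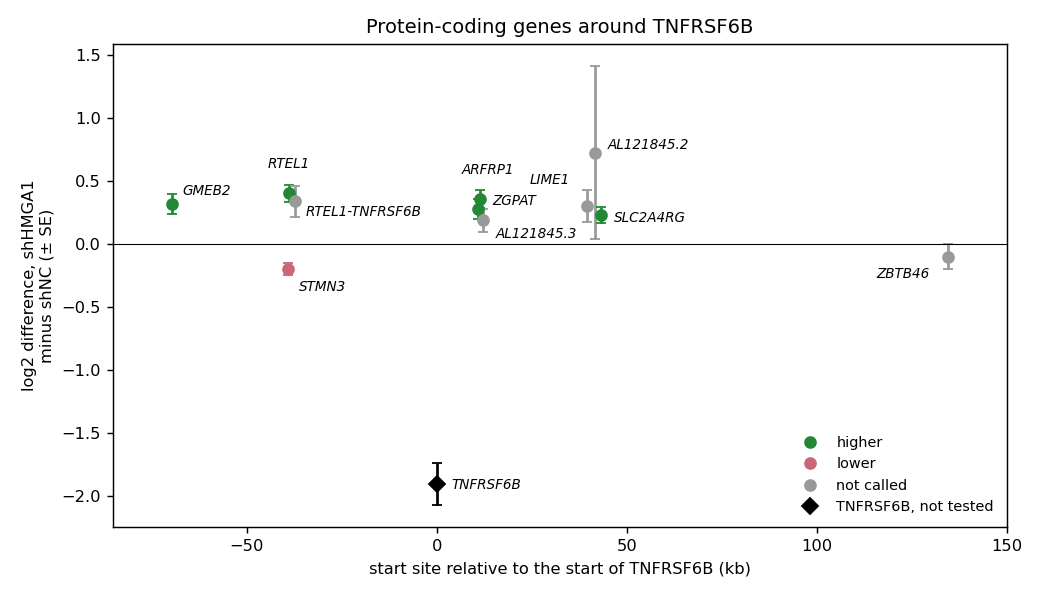
Difference of mean log2(FPKM + 1), shHMGA1 minus shNC (± SE), for TNFRSF6B and the 11 protein-coding genes within 100 kb, against the distance of each gene's start site from that of TNFRSF6B in kb. Colours give the call by limma at an adjusted p under 0.05. TNFRSF6B lies at -1.90, and the genes beside it lie between -0.20 and 0.73.

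Genes with a profile most like that of TNFRSF6B were sought among 10318 genes averaging 5 FPKM or more, by the root mean square distance between mean-centred log2(FPKM + 1) values over the 6 libraries. Among the nearest were VSNL1 (0.13) and PRF1 (0.19). VSNL1, a calcium sensor, went from 15.4 ± 0.584 to 2.97 ± 0.58 FPKM. PRF1, the pore-forming perforin, was at 9.79, 9.25 and 10.7 FPKM in shNC and 1.96, 2.15 and 1.92 in shHMGA1. For TNFSF10 the nearest were SELENOP (distance 0.03), IGF2 (0.03) and SH2D3A (0.03), with 68.7%, 66.8% and 70.8% of their control FPKM. TNFSF10 itself was at 14.5%: the added 1 compresses its low values, so its nearest genes are set by the pseudocount and are not alike in fold change.

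Most of the other receptors tested were not called. This list and the lists below were chosen with earlier results of these data known, so their counts are descriptive. Over all genes tested, 16.1% were called higher, 12.3% lower and 28.4% in either direction. Of 20 other TNF receptor genes listed, 19 were in the table and 10 were tested: TNFRSF13C rose, NGFR and TNFRSF19 fell and 7 did not pass (median log2 difference 0.05). NGFR, the low-affinity neurotrophin receptor and a death-domain protein, fell from 25.4 ± 0.685 to 18.8 ± 0.959 FPKM (-0.42, SE 0.06, adjusted p = 0.00334 by limma). TNFRSF13C, the BAFF receptor of B cells, rose from 0.877 ± 0.0764 to 2.13 ± 0.278 FPKM. TNFRSF19, at 2.43 ± 0.235 and 1.26 ± 0.309 FPKM, was not called when shNC replicate 1, shNC replicate 2 or shHMGA1 replicate 3 was omitted (adjusted p up to 0.0622). LTBR, the lymphotoxin receptor, was as abundant as TNFRSF1A in the controls, at 52.0 ± 1.84 FPKM, and had 54.1 ± 6.84 in the knockdown (adjusted p = 0.71). TNFRSF1B, the TNF receptor without a death domain, was below the level for testing, at 0.28, 0.27 and 0.30 FPKM in shNC and 0.03, 0.09 and 0.16 in shHMGA1.

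Ligands were mostly scarce. Of 17 other ligands listed, 13 were in the table and 6 were tested: TNFSF4 rose, TNFSF18 and TNFSF12 fell and 3 did not pass (median -0.32). TNFSF18, the ligand of TNFRSF18, fell from 1.94 ± 0.115 to 0.46 ± 0.0265 FPKM (-1.01, SE 0.11, adjusted p = 0.00178 by limma), and TNFSF4, the OX40 ligand, rose from 0.673 ± 0.0929 to 1.81 ± 0.162 (0.75, SE 0.12, adjusted p = 0.00524). TNFSF14 and TNFSF15, which bind TNFRSF6B, and TNFSF11, which binds TNFRSF11B, did not exceed 0.04 FPKM in any library. FASLG and TNF were not among the 13 ligands present. The count of ligands that fell was 1 without shNC replicate 1 or shHMGA1 replicate 3 and 4 without shHMGA1 replicate 1.

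Of 21 genes of the death-inducing complex, caspases and their inhibitors, all tested, 1 rose, 2 fell and 18 did not pass (median 0.04, against 0.02 over all genes tested, of which 28.4% were called). BIRC2 fell from 26.4 ± 0.97 to 19.8 ± 0.276 FPKM (log2 difference -0.40, SE 0.05, adjusted p = 0.00282 by limma). The adaptor FADD had 21.9 ± 0.72 and 26.0 ± 3.76 FPKM (adjusted p = 0.131), the initiator CASP8 19.3 ± 0.431 and 21.6 ± 1.92 (adjusted p = 0.148), and its inhibitor CFLAR 10.1 ± 0.914 and 11.2 ± 1.19 (adjusted p = 0.324). None of these 3 was called. CASP10 (-0.20), BID (0.23), XIAP (-0.37) and BIRC3 (-0.44), given as log2 differences, were not called either. Without shHMGA1 replicate 1, FADD (0.32, adjusted p = 0.0251) and XIAP (-0.47, adjusted p = 0.0296) passed, and BID passed without shHMGA1 replicate 3 (adjusted p = 0.0456). BIRC5, the gene that rose, rose from 120 ± 4.96 to 143 ± 8.09 FPKM and was not called when shNC replicate 1, shNC replicate 2 or shHMGA1 replicate 3 was omitted (adjusted p up to 0.071).

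In the list of TRAF, RIPK and NF-kB genes, 32 of 34 were tested, 6 rose, 2 fell and 24 did not pass (median 0.07). Over all genes tested, 16.1% were called higher and 12.3% lower. MLKL, the executor of necroptosis, rose from 3.96 ± 0.524 to 7.14 ± 0.212 FPKM (log2 difference 0.72, SE 0.09, adjusted p = 0.00277 by limma). TRAF2, the adaptor that binds TNFRSF1A complexes, rose from 9.5 ± 0.389 to 13.1 ± 0.246 FPKM (0.43, SE 0.06, adjusted p = 0.00325), and the NF-kB inhibitor NFKBIB from 21.6 ± 0.376 to 27.3 ± 0.76 (0.32). These 3 were called with any 1 library left out. TRAF4 (0.32) rose, a call lost when shNC replicate 1, shNC replicate 2, shHMGA1 replicate 2 or shHMGA1 replicate 3 was omitted. The kinase RIPK1 had 12.6 ± 0.661 and 14.4 ± 1.36 FPKM (adjusted p = 0.132) and passed without shHMGA1 replicate 1 (0.26, adjusted p = 0.0297). NFKB2 (-0.33) and MAP3K5 (-0.40) fell, and each call depended on single libraries. NFKB2 was lost when shNC replicate 1, shNC replicate 3 or shHMGA1 replicate 3 was omitted (adjusted p up to 0.0609), and MAP3K5 when any library other than shHMGA1 replicate 1 was omitted (adjusted p up to 0.095). The count of genes lower in this list was 0 with shNC replicate 1 or shNC replicate 3 omitted and 1 with shNC replicate 2, shHMGA1 replicate 2 or shHMGA1 replicate 3 omitted.

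**Figure D5:**
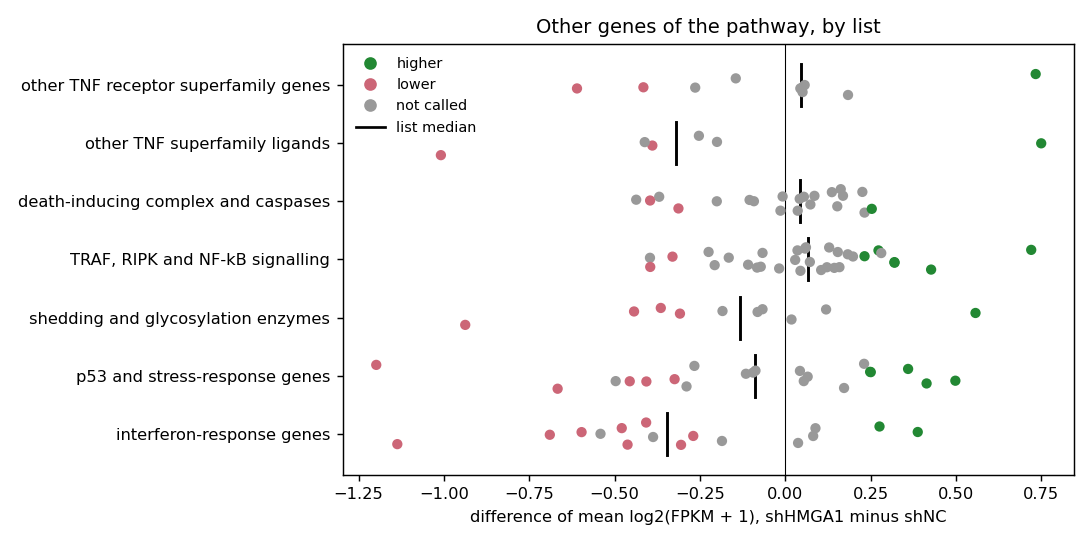
Difference of mean log2(FPKM + 1), shHMGA1 minus shNC, of each tested gene in the 7 lists (1 point per gene, spread vertically at random for legibility), coloured by the limma call at an adjusted p under 0.05, with the list median as a bar. Most genes of the death-inducing complex are grey and close to 0, and the interferon-response list has its median at -0.35.

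Of 12 genes of protein shedding and glycosylation, 10 were tested. Over all genes tested, 16.1% were called higher and 12.3% lower. In this list 1 rose, 4 fell and 5 did not pass (median -0.13). With no filter on low values, 2 rose and 2 fell. ADAM10, a protease that sheds membrane proteins, fell from 74.9 ± 7.45 to 54.9 ± 6.85 FPKM (log2 difference -0.44, adjusted p = 0.0199 by limma), and TIMP3, an inhibitor of such proteases, from 2.54 ± 0.0173 to 0.85 ± 0.111 (-0.94, SE 0.10, adjusted p = 0.00177). GALNT3, which starts O-glycans of the kind known on TRAIL receptors, rose from 6.23 ± 0.306 to 9.64 ± 0.67 FPKM (0.56, SE 0.07, adjusted p = 0.00306). FUT8 (-0.36) and RHBDF2 (-0.31) were the others that fell. The count that fell was 2 when shNC replicate 1 or shHMGA1 replicate 3 was omitted. ADAM10 was not called when shNC replicate 1, shNC replicate 2, shHMGA1 replicate 2 or shHMGA1 replicate 3 was omitted (adjusted p up to 0.0706), nor RHBDF2 when shNC replicate 1, shNC replicate 3, shHMGA1 replicate 1 or shHMGA1 replicate 3 was.

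Of 21 interferon-response genes, 16 were tested, 2 rose, 8 fell and 6 did not pass (median -0.35, against 0.02 over all genes tested, of which 12.3% were called lower and 16.1% higher). The list was chosen with earlier results of these data known. Its counts are therefore descriptive, and a shift of the list as a whole was not tested. IFI6, an interferon-induced mitochondrial protein, fell from 63.3 ± 1.88 to 28.4 ± 3.12 FPKM (log2 difference -1.14, SE 0.08, adjusted p = 0.000485 by limma). IFIT1, a sensor of foreign RNA, fell from 4.54 ± 0.163 to 2.45 ± 0.35 (-0.69), the transcription factor IRF7 from 11.3 ± 0.459 to 7.15 ± 0.56 (-0.60) and IFITM1, which blocks virus entry, from 49.9 ± 1.84 to 35.5 ± 0.905 (-0.48). All 4 were called with any 1 library left out. BST2 (0.39) and IRF1 (0.28) rose. The count that fell was 5 when shNC replicate 1 or shHMGA1 replicate 3 was omitted. In those same fits 1 gene rose, and 0 rose when shNC replicate 2 was omitted.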

How the data were processed

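A single table was used, for 6 libraries grouped by their titles. Per the labels' protocols, mRNA was bound to poly-T beads and sequenced on an MGI instrument. Per the submitters' processing notes, the build was hg38; no source used here states the aligner, counter, strand setting or annotation. The authors deposited 1 column per library, which the deposited table's name gives as FPKM, with 2 decimals. The same deposited table holds the authors' signal per group (its scale is not stated, and the values look like normalized counts), their log2 fold change and their p-value; its p-values were not used. The 14304 genes averaging 1 FPKM or more were tested two-sided on the scale log2(FPKM + 1), using limma 3.58.1 (R 4.3.3, eBayes with trend), with Benjamini-Hochberg adjustment over all of them. Differences are shHMGA1 minus shNC, "called" means an adjusted p under 0.05, and a difference on this scale understates the change of low genes. The fit was tested on simulated data. The FPKM values of HMGA1 alone were also compared by exact permutation (scipy 1.17.1, Python 3.11.15). Members and lists were chosen with earlier results of these data known. Named were all members, HMGA1, a fixed set of pathway genes, up to 4 called genes per list and direction, genes overlapping a member, the neighbours of TNFRSF6B and the nearest profiles; some genes under this rule are not reported here. Alternatives were other pseudocounts, filters and scalings, no mitochondrially encoded genes, the replicate number as a block, other eBayes settings and leaving out each library.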

Additional observations from a re-analysis of the deposited data

How the results depend on the processing

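The differences of the 8 tested members kept their sign in the alternatives run, except FAS, which was -0.066 instead of 0.09 without shHMGA1 replicate 1 (range -0.066 to 0.21 with a library left out). The count of members called lower was 5 or 6 in the other settings and 4 to 6 with a library left out, and HMGA1 stayed lower (-0.75 to -0.61). The members were picked with the contrast known, so their count is descriptive and nothing is read from it. The decoy ratio was 0.59 to 0.606 in shNC and 0.279 to 0.307 in shHMGA1 with a library left out; with TNFRSF6B removed from the decoys, an alternative chosen after seeing the data, it was 0.177 and 0.161. Counts of all genes called ranged from 1138 to 2626 higher and from 952 to 1973 lower with a library left out; they were 1138 and 1001 without shNC replicate 1, 1279 and 952 without shNC replicate 2, and 1173 and 1055 without shHMGA1 replicate 3. With a library left out, the TNF receptor list had 1 to 2 lower, the ligand list 1 to 4 lower, the death-inducing complex list 0 to 2 higher, the TRAF and NF-kB list 0 to 2 lower, the shedding list 2 to 3 lower, the p53 list 2 to 5 higher and 4 to 8 lower, the interferon list 0 to 2 higher and 5 to 11 lower, and the genes near TNFRSF6B 2 to 6 higher and 0 to 1 lower. Without a filter 1478 genes were higher, with 1 ligand and 1 TRAF or NF-kB gene lower, 2 shedding enzymes higher and 2 lower, 2 p53 genes higher, 1 interferon gene higher and 2 genes near TNFRSF6B higher. At a mean of at least 5 FPKM, 0 receptors and 0 ligands were higher and 1 of each lower. These filters change which genes are tested; the cause of the other shifts was not tested. No sign of pairing by replicate number was seen (correlations of deviations of 0.02, -0.04 and 0.04 for equal numbers, and -0.07 to 0.05 for unequal numbers). Whether the samples were paired is not stated. With the number as a block, 1913 genes were higher and 1495 lower, and 2 genes of the death-inducing complex list were higher instead of 1. Precision is lowest at low FPKM, where TNFSF10 and TNFRSF11B lie.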

Other observations

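Genes of the p53 and stress responses, which are known to induce TNFRSF10B and FAS in other settings, went both ways. Of 21 tested, 5 rose, 5 fell and 11 did not pass (median log2 difference -0.09). Over all genes tested, 16.1% were called higher and 12.3% lower. The list was chosen with earlier results of these data known, so its counts are descriptive. GDF15, a secreted stress cytokine, fell from 126 ± 4.51 to 79.0 ± 4.74 FPKM (-0.67, SE 0.06, adjusted p = 0.000909 by limma). The pore-forming apoptosis protein BAX fell from 108 ± 10.4 to 78.0 ± 5.49 (-0.46) and the cell cycle inhibitor CDKN1A from 150 ± 4.36 to 114 ± 13.3 (-0.41). TRIB3, a target of the integrated stress response, rose from 15.6 ± 1.03 to 21.1 ± 0.441 (0.41), and its regulator ATF4 had a log2 difference of 0.25. These 5 were called with any 1 library left out. ATF3, a stress-induced transcription factor, was at 57.6 ± 5.03 and 26.9 ± 14.4 FPKM (-1.20, adjusted p = 0.0365) and was not called when any 1 of the shNC libraries or shHMGA1 replicate 3 was left out (adjusted p up to 0.104). TP53I3 (0.50) and AEN (0.36) rose, with adjusted p of up to 0.0641 and 0.066 with a library left out. The count that rose was 3 without shNC replicate 1, and it was 2 when any of shNC replicate 2, shNC replicate 3 and shHMGA1 replicate 3 was omitted. The count that fell was 8 without shHMGA1 replicate 1.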
